A study of Mus musculus with 4 samples.

Results

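Cholesterol and fatty acid synthesis genes of mouse hair follicle stem cells (HFSCs) were compared between short- and long-term culture. The set held 31 genes, chosen by gene symbol for their role in sterol synthesis, in its control by sterol regulatory element-binding proteins (SREBPs) or in fatty acid synthesis, and all 31 were found among the 24346 gene symbols of each library. By role, 7 genes belonged to the mevalonate and isoprenoid steps, 10 to the steps from squalene formation to cholesterol, 6 to the SREBP regulators together with a sterol carrier, and 8 to fatty acid synthesis, elongation and desaturation. HFSCs were CD49f- and CD34-positive cells sorted from the dorsal skin of 4-week-old C3H/HeN mice and grown, with a passage every week and without feeder cells, in the serum-free medium M-CnT. RNA was sequenced after 10 passages (10p-HFSCs, 2 libraries) and after 48 passages (48p-HFSCs, 2 libraries), neither group received a treatment, and the comparison asked how expression differed after long-term culture. The sources do not state whether the libraries of a group came from separate cultures or sorts, so that p-values measure only the spread between these libraries, which may be technical.

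Cholesterol is built from acetyl-CoA through mevalonate, isoprenoid units and squalene, and squalene is then closed to the first sterol and trimmed stepwise to cholesterol. The SREBPs are membrane-bound transcription factors that SCAP escorts out of the endoplasmic reticulum when sterols are scarce, while INSIG proteins hold them back when sterols are plentiful. SREBP-2, encoded by Srebf2, mainly serves sterol synthesis genes, and SREBP-1, encoded by Srebf1, mainly serves fatty acid synthesis genes. In skin, keratinocytes and sebaceous gland cells make much of their own sterol and fatty acid, and these lipids form part of the epidermal barrier and of sebum.

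Expression was measured as FPKM, the authors' count of fragments per gene scaled to exon length and to all mapped fragments, and compared by limma on the log2(FPKM + 1) scale over the 11018 genes that reached 1 FPKM in 2 or more libraries. Genes were called where the Benjamini-Hochberg adjusted p-value was below 0.05 and the log2 difference was 1 or more in size. SE is the standard error of that difference. With 2 libraries against 2, the smallest p-value of an exact two-sided permutation test is 0.333, so that calls rested on the variance limma shares across genes. Read totals are not known from FPKM, and no counting interval is given. The summed FPKM ranged from 581516 to 719012 in 10p-HFSCs, but was 666018 and 1414953 in replicates 1 and 2 of 48p-HFSCs. Rescaling each library to the same sum (TPM) therefore shifted the median log2 difference of all genes from -0.03 to -0.56. Calls and adjusted p-values under TPM rescaling include that shift. Where stated, differences are also given relative to that median. By the median of gene-wise ratios the libraries were already level before any rescaling, with median-of-ratios factors from 0.9872 to 1.014. Keratinocyte genes were abundant in every library, with Krt5 between 1473 and 8156 FPKM, whereas Cd34 was at 0.234 FPKM or less, Lhx2 at 0.024 or less and Lgr5 at 0.030 or less, so that these 3 of the 10 stem cell and basal keratinocyte markers were near 0. Other markers of that list were expressed. Itga6, which encodes the sort marker CD49f, rose from 31.4 and 20.8 FPKM to 101 and 79.0 FPKM (limma adjusted p = 0.014). It was not called under TPM rescaling, at 1.76 above the median of all genes. Sox9 fell from 45.6 and 44.2 FPKM to 20.2 and 8.31 FPKM (adjusted p = 0.039 by limma), and Krt15 was at 136 and 82.6 FPKM and at 425 and 18.8 FPKM. By qRT-PCR, the paper reports increased Sox9 and Lhx2 after long-term culture, with Cd34 and Krt15 maintained. It also reports most cells as CD34-positive by flow cytometry after short- and long-term culture. The fall of Sox9 in these libraries has the opposite direction, Lhx2 showed no rise, and Cd34 RNA was low throughout. The cause of these differences was not tested. Of 10 sebocyte markers, 6 were below 1 FPKM in every library, and Mc5r and Elovl3 were listed at 0 throughout. The summed FPKM of the sebocyte list was 10.9 and 8.21 in 10p-HFSCs against 17.3 and 12.2 in 48p-HFSCs. Of 6 adipocyte markers, 5 were below 1 FPKM in every library, among them Adipoq and Plin1, while Fabp4 rose from 0.334 and 0.311 FPKM to 11.2 and 4.29 FPKM (limma adjusted p = 0.012). Of 8 fibroblast markers, 6 were below 1 FPKM in every library, among them Lum and Dcn, listed at 0 in all 4 libraries. Col1a2 fell from 67.6 and 59.3 FPKM to 0 in both 48p-HFSC libraries. Vim fell from 284 and 327 FPKM to 2.35 and 3.08 FPKM. The summed FPKM of the list, mostly from Vim and Col1a2 in 10p-HFSCs, dropped from 353 and 388 there to 2.53 and 3.32 in 48p-HFSCs. The part of these cell type markers in the results on lipid genes was not tested, and in such bulk RNA fewer cells of a type and less RNA per cell cannot be told apart.

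All 31 lipid synthesis genes passed the filter on low values, and 2 of them fell in 48p-HFSCs, Scd1 and Cyp51. These 2 genes were 6.45% of the set, where 19.9% of all genes tested were called in either direction, 10.8% higher and 9.15% lower. The number of lipid genes called higher by limma was 0, although 2 of the 31 had an unadjusted p-value under 0.05 and a higher mean in 48p-HFSCs (Tm7sf2 and Insig2), beside 5 with a lower mean (Acat2, Nsdhl and Srebf1, and the called Scd1 and Cyp51). These 7 of 31 stand beside 4118 of the 11018 genes tested. The log2 differences reached from -1.81 for Scd1 to 0.98 for Tm7sf2, with a median of -0.21 beside -0.03 for all genes tested. The mean of log2(FPKM + 1) was lower in 48p-HFSCs for 22 of 31 genes (51.5% of all genes) and higher for 9 (48.5%). The libraries of the groups did not overlap for 16 of the 31 genes, that is 51.6% of the set beside 65.9% of all genes. Of these, 10 were lower, where 34.3% of all genes were, and 6 were higher, where 31.7% were. After TPM rescaling 5 lipid genes were called lower and 0 higher (Acat2, Cyp51, Nsdhl, Insig1 and Scd1), where 13.0% of all genes were called, 7.37% lower and 5.65% higher. Relative to the shifted median, no lipid gene moved by more than 0.03 from its value without rescaling. Acat2, Nsdhl and Insig1 were at -0.89, -0.97 and -0.93 on that scale, smaller in size than the limit of 1.

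**Figure D1:**
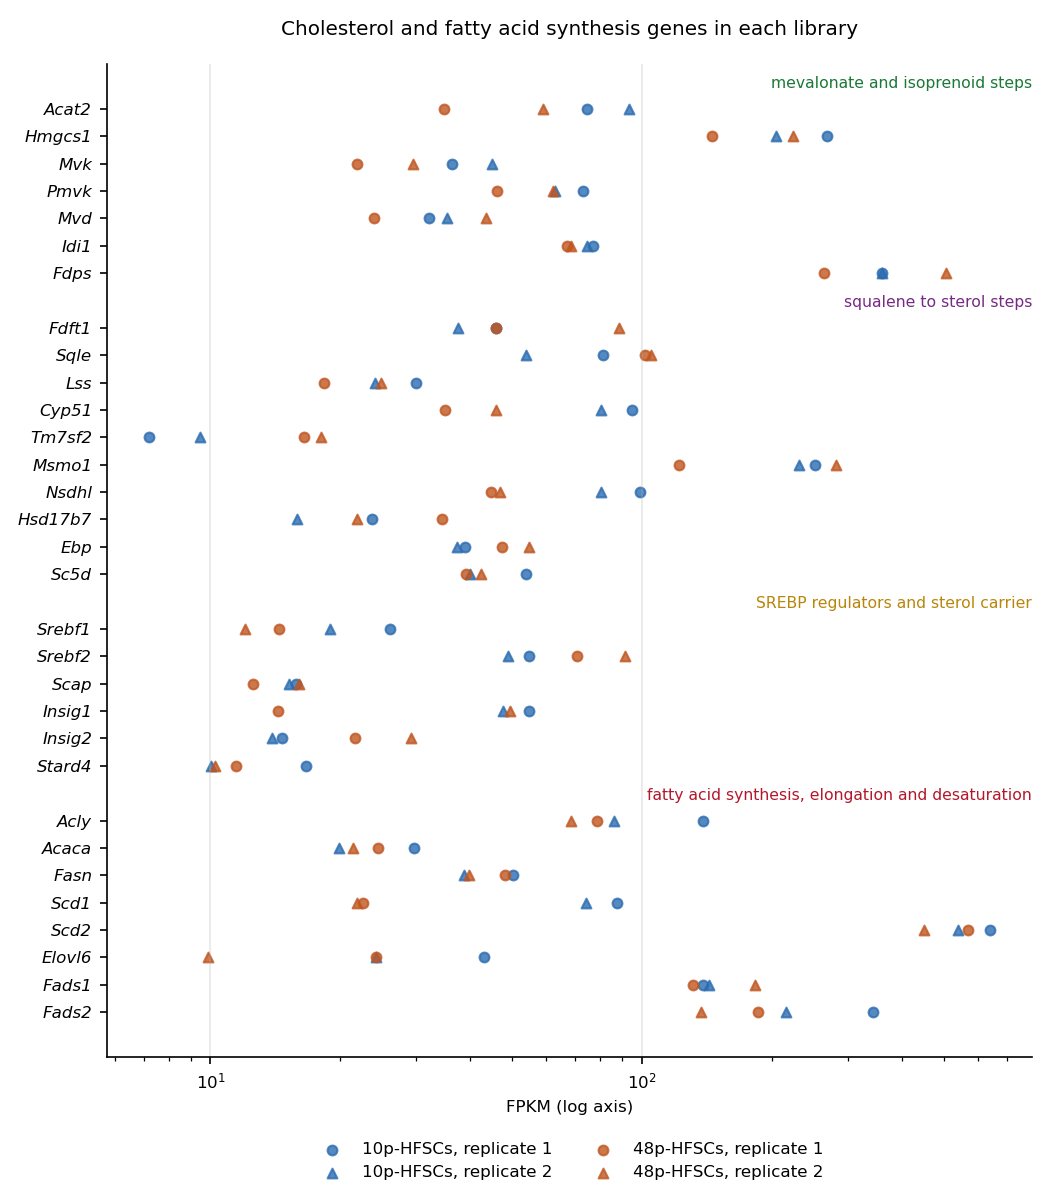
FPKM (log axis) of the 31 genes in each of the 4 libraries, grouped by role, with circles for replicate 1 and triangles for replicate 2 of 10p-HFSCs (blue) and 48p-HFSCs (orange). Scd2 lies between 450.3 and 639 FPKM, highest in every library except replicate 2 of 48p-HFSCs, where Fdps is higher at 505 FPKM. The blue and orange points are set widely apart for Scd1.

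**Figure D2:**
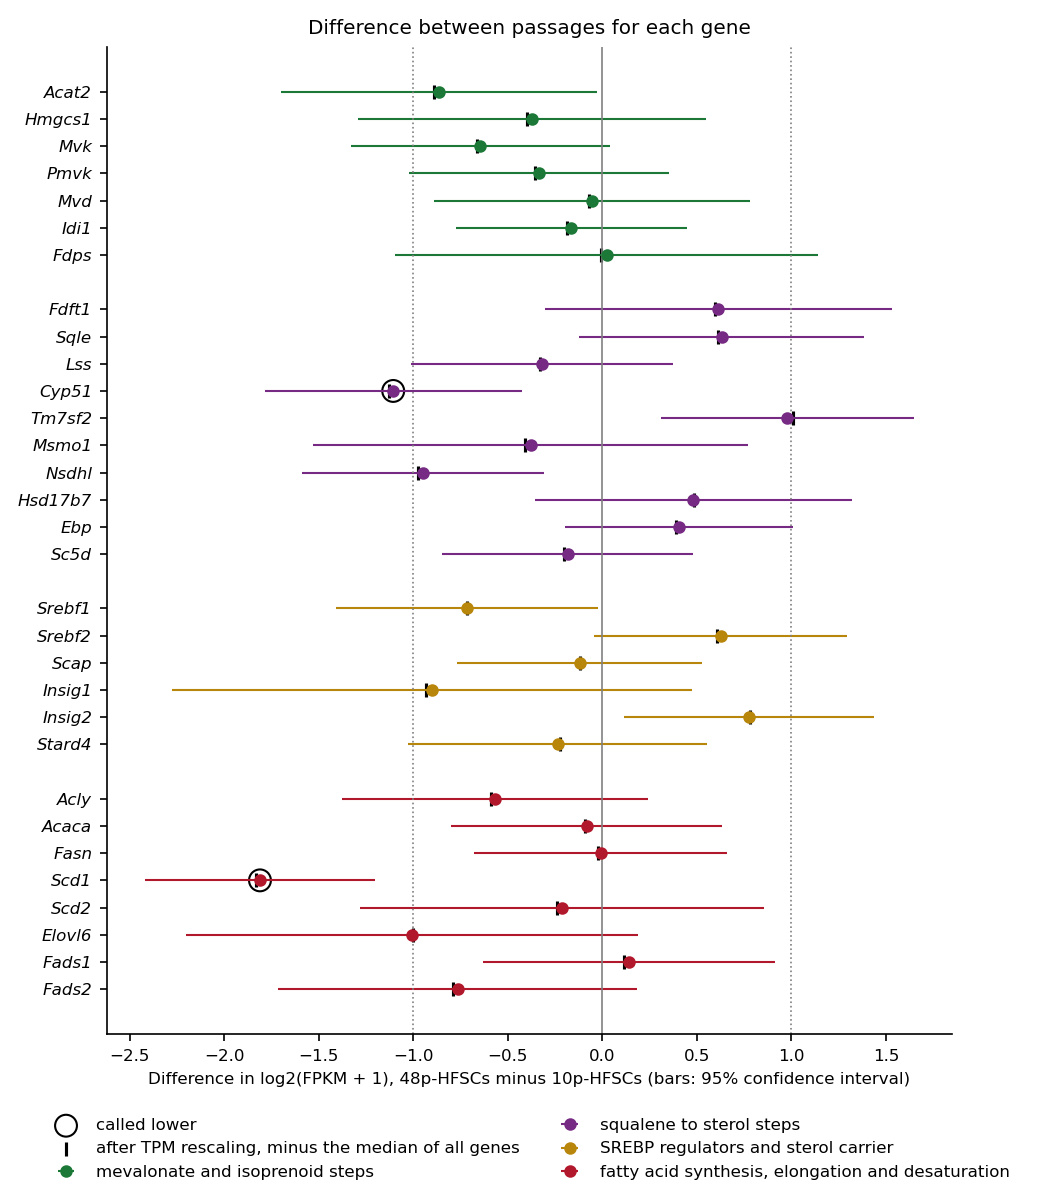
Difference in log2(FPKM + 1) between 48p- and 10p-HFSCs for each gene, with bars for the 95% confidence interval of the limma fit, rings around the called genes, and black ticks for the difference after TPM rescaling minus the median of all genes. Scd1 at -1.81 and Cyp51 at -1.11 are ringed, and the ticks lie within 0.03 of the points.

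The clearest change of the set was the fall of Scd1, stearoyl-CoA desaturase 1, which puts the first double bond into saturated fatty acids. Scd1 (mm10 chromosome 19, 44394450 to 44407709) was at 87.2 and 74.0 FPKM in replicates 1 and 2 of 10p-HFSCs, and at 22.5 and 21.9 FPKM in those of 48p-HFSCs. Both 48p-HFSC libraries lay far below both 10p-HFSC libraries and close to each other. The group means were 80.6 ± 9.30 FPKM (SD, n = 2) and 22.2 ± 0.466 FPKM (SD, n = 2), a log2 difference of -1.81 (SE 0.25, 95% confidence interval -2.42 to -1.20, limma adjusted p = 0.0063). Among the 31 genes Scd1 went from the 11th highest mean FPKM in 10p-HFSCs to the 25th in 48p-HFSCs. Its difference stayed between -1.93 and -1.69 with each library left out in turn, but without replicate 1 or without replicate 2 of 10p-HFSCs its adjusted p-value was 0.17 and 0.12, with 1 library left in that group.

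The paralog Scd2, which lies in the same cluster on chromosome 19 from 44293676 to 44306864 and catalyzes the same reaction, had the highest mean FPKM of the set at both passages. It was at 639 and 538 FPKM in 10p-HFSCs, and at 568 and 450.3 FPKM in 48p-HFSCs. These ranges overlapped, and the log2 difference of -0.21 had a 95% confidence interval of -1.28 to 0.86 (limma adjusted p = 0.75), an interval that spans differences in both directions. Within each library the ratio of Scd2 to Scd1 does not depend on the scaling between libraries. This ratio was 7.33 and 7.27 in 10p-HFSCs against 25.2 and 20.6 in 48p-HFSCs. Whether the 2 genes changed unequally was not tested, and the pair was chosen after its values were seen. The handling of reads shared by such paralogs is not given in the sources used here.

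The enzymes that build the saturated chain did not differ beyond their spread. Fasn, fatty acid synthase, was at 50.1 and 38.6 FPKM in 10p-HFSCs, and at 48.0 and 39.7 FPKM in 48p-HFSCs, a log2 difference of -0.01 with a 95% confidence interval of -0.68 to 0.66. Acaca, acetyl-CoA carboxylase 1, which makes the malonyl-CoA that Fasn uses, was at 29.7 and 19.9 FPKM, and at 24.4 and 21.4 FPKM. For both genes the replicates of 1 group spanned the values of the other. Acly, ATP citrate lyase, which supplies cytosolic acetyl-CoA, was at 138 and 85.9 FPKM in 10p-HFSCs, and at 78.5 and 68.3 FPKM in 48p-HFSCs. Its libraries did not overlap, but the 10p-HFSC replicates were far apart, and the log2 difference of -0.57 was not called (limma adjusted p = 0.26). The ratio of Fasn to Scd1 was 0.574 and 0.521 in 10p-HFSCs against 2.13 and 1.82 in 48p-HFSCs.

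Elovl6, which lengthens saturated and monounsaturated chains, was at 43.0 and 24.2 FPKM in 10p-HFSCs, and at 24.2 and 9.89 FPKM in 48p-HFSCs. The higher 48p-HFSC library met the lower 10p-HFSC library, so that the groups overlapped, and the log2 difference of -1.01 was not called (SE 0.49, limma adjusted p = 0.19). Fads2, the delta-6 desaturase at the start of polyunsaturated fatty acid synthesis, was at 343 and 215 FPKM in 10p-HFSCs, and at 186 and 137 FPKM in 48p-HFSCs. Its libraries did not overlap, and its log2 difference of -0.76 had a 95% confidence interval of -1.71 to 0.18. Fads1, the delta-5 desaturase of the same pathway, was at 138 and 143 FPKM in 10p-HFSCs, and at 131 and 183 FPKM in 48p-HFSCs, with a log2 difference of 0.14 that turned to -0.44 under TPM rescaling, or 0.12 above the median of all genes. The ratio of Fads1 to Fads2 was 0.404 and 0.662 in 10p-HFSCs against 0.707 and 1.34 in 48p-HFSCs.

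In the steps from squalene formation to cholesterol, Cyp51 fell, while genes before and after it differed in either direction without a call. Cyp51, the sterol 14-alpha-demethylase that acts on lanosterol, lies on chromosome 5 from 4080674 to 4104697. It was at 94.6 and 80.4 FPKM in 10p-HFSCs, and at 34.8 and 45.9 FPKM in 48p-HFSCs. The libraries did not overlap, and the means of 87.5 ± 10.1 FPKM (SD, n = 2) and 40.4 ± 7.82 FPKM (SD, n = 2) gave a log2 difference of -1.11 (SE 0.28, 95% confidence interval -1.79 to -0.43, limma adjusted p = 0.041). The call was close to both limits. It was lost without a filter on low values (adjusted p = 0.058) and after a correction for transcript length and GC content (-0.89, adjusted p = 0.064), and leaving out replicate 1 or replicate 2 of 10p-HFSCs or replicate 1 of 48p-HFSCs gave -0.99, -1.22 and -0.91, again without a call. An exon stretch of 166 bases of Cyp51, 4.2% of its exon length, overlaps Akap9 on the opposite strand, and whether the counting used strand is not given in the sources used here.

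Nsdhl, a decarboxylating sterol dehydrogenase that acts with Hsd17b7 in removing the methyl groups at C4, was at 98.8 and 80.3 FPKM in 10p-HFSCs, and at 44.5 and 46.7 FPKM in 48p-HFSCs. Its libraries did not overlap and its 48p-HFSC values were close together, but the log2 difference of -0.95 (SE 0.26, limma adjusted p = 0.053) missed both limits. It was called under TPM rescaling (limma adjusted p = 0.028), where its difference relative to the median of all genes was -0.97, short of the limit of 1. After the correction for transcript length and GC content it was called as well (-1.03, limma adjusted p = 0.024). Msmo1, the C4-methylsterol oxidase of the same complex, was at 252 and 230.3 FPKM in 10p-HFSCs, and at 122 and 280.5 FPKM in 48p-HFSCs. The 48p-HFSC replicates thus lay on either side of the 10p-HFSC libraries. Hsd17b7 was at 23.7 and 15.8 FPKM in 10p-HFSCs, and at 34.4 and 21.9 FPKM in 48p-HFSCs, with overlap between groups.

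Tm7sf2, a sterol C14-reductase that acts right after Cyp51, had the largest upward difference of the set. It was at 7.20 and 9.46 FPKM in 10p-HFSCs, and at 16.5 and 18.0 FPKM in 48p-HFSCs. Its libraries did not overlap, and the log2 difference of 0.98 (SE 0.27, limma adjusted p = 0.054) stood just outside both limits. Under TPM rescaling its difference was 0.45, which is 1.01 above the median of all genes. After the correction for transcript length and GC content it was 0.57 (limma adjusted p = 0.12). There it was no longer the largest, with Insig2 at 0.84 and Srebf2 at 0.81. Lbr, the other enzyme with this activity, was at 46.7 and 40.6 FPKM in 10p-HFSCs, and at 17.8 and 38.6 FPKM in 48p-HFSCs. The ratio of Tm7sf2 to Lbr was 0.154 and 0.233 in 10p-HFSCs against 0.926 and 0.467 in 48p-HFSCs.

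Of the enzymes between squalene formation and Cyp51, Fdft1 and Sqle had a higher and Lss a lower mean in 48p-HFSCs, without a call. Fdft1, squalene synthase, was at 45.8 and 37.3 FPKM in 10p-HFSCs, and at 45.8 and 88.5 FPKM in 48p-HFSCs, where only replicate 2 of 48p-HFSCs stood apart. Its exons share 774 bases, 20.9% of their length, with Ctsb on the opposite strand, and Ctsb, looked up after the Fdft1 values were seen, was itself at 69.4 and 68.8 FPKM in 10p-HFSCs, and at 102 and 137 FPKM in 48p-HFSCs. Sqle, squalene epoxidase, was at 81.2 and 53.8 FPKM in 10p-HFSCs, and at 101 and 105 FPKM in 48p-HFSCs, a log2 difference of 0.63 (limma adjusted p = 0.19). Lss, which closes oxidosqualene to lanosterol, was at 29.99 and 23.99 FPKM, and at 18.3 and 24.8 FPKM, with overlap. The ratio of Sqle to Cyp51 was 0.858 and 0.669 in 10p-HFSCs against 2.91 and 2.28 in 48p-HFSCs. Ebp, the isomerase of a late step, was at 38.9 and 37.2 FPKM in 10p-HFSCs, and at 47.2 and 54.6 FPKM in 48p-HFSCs, above the 10p-HFSC libraries by less than 1 on the log2 scale. Sc5d, the desaturase that follows Ebp, was at 53.7 and 39.9 FPKM, and at 39.1 and 42.2 FPKM, with overlap.

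Promoter sequence was looked up in RefSeq (GRCm38.p6, the assembly that mm10 also names), in windows from 250 bases before to 50 bases after each start. A window was found for 24 of the 31 genes, 30 windows in all. The letters TCACNCCAC, a form of the sterol regulatory element, were searched on both strands and stood in 1 of the 30 windows, that of Hmgcs1, and in 1.24% of 32851 windows of all genes. Other forms of the element were not searched, so a window without these letters may still hold one. CCAAT, the box bound by NF-Y, which acts beside SREBPs at many sterol gene promoters, stood in 66.7% of the 30 windows and in 37.41% of all windows. GGGCGG, an Sp1 box, stood in 76.7% and in 35.66%. The motifs do not overlap each other in the 4 sequences shown, a match is a description of letters and not a shown binding site, and several windows belong to the same gene. The 250 bases before the start are printed 5' to 3' for Hmgcs1, the gene with the sterol element letters, for the called Cyp51, for Nsdhl, called lower under TPM rescaling, and for Insig1, whose 48p-HFSC replicates differed most. These were chosen after their values were seen. Capitals mark the motifs named above, on either strand.
Hmgcs1, chr13:119690101-119690350, plus strand: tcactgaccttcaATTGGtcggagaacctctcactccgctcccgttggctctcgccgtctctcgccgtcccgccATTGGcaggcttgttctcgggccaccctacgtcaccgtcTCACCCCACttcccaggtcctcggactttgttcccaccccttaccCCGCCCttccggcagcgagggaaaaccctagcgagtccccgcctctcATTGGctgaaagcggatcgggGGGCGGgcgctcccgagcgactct
Cyp51, chr5:4104698-4104947, minus strand: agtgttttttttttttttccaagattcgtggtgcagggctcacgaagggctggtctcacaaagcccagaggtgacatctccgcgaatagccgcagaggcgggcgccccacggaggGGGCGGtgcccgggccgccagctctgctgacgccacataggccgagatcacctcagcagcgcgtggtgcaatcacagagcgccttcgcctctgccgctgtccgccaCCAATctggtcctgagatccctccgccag
Nsdhl, chrX:72918271-72918520, plus strand: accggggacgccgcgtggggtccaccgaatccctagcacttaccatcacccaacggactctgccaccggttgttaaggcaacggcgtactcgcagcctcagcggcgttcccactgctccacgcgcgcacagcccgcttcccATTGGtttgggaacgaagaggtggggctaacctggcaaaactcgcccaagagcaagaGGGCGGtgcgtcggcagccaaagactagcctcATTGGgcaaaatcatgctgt
Insig1, chr5:28071162-28071411, plus strand: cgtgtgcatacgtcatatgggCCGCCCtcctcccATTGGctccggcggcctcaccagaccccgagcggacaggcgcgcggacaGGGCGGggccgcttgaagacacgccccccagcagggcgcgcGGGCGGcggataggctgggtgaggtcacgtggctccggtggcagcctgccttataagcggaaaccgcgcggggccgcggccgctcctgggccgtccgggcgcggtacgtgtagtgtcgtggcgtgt
The Hmgcs1 sequence held 3 CCAAT and 2 GGGCGG matches beside its sterol element letters, Cyp51 held 1 of each box, Nsdhl 2 CCAAT and 1 GGGCGG, and Insig1 1 CCAAT and 3 GGGCGG. Whether the boxes go with the differences between groups was not tested.

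In the mevalonate and isoprenoid steps, 0 of 7 genes were called by limma, and 1 of 7 had an unadjusted p-value under 0.05 (Acat2). The mean of log2(FPKM + 1) was lower in 48p-HFSCs for 6 of 7, beside 51.5% of all genes. Their median log2 difference was -0.33, beside -0.03 for all genes tested. Acat2, the cytosolic thiolase that joins acetyl-CoA units, was at 74.3 and 93.1 FPKM in 10p-HFSCs, and at 34.8 and 58.9 FPKM in 48p-HFSCs. Its libraries did not overlap, and its log2 difference of -0.86 (SE 0.34, limma adjusted p = 0.12) was called under TPM rescaling (adjusted p = 0.020), at 0.89 below the median of all genes. Hmgcs1, the cytosolic HMG-CoA synthase, was at 267 and 204 FPKM in 10p-HFSCs, and at 145 and 224 FPKM in 48p-HFSCs, and replicate 2 of 48p-HFSCs fell within the 10p-HFSC range. Mvk, mevalonate kinase, was at 36.2 and 44.9 FPKM in 10p-HFSCs, and at 21.9 and 29.5 FPKM in 48p-HFSCs, without overlap and with a log2 difference of -0.65 (95% confidence interval -1.33 to 0.04).

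The later genes of this branch lay closer to 0. Pmvk, phosphomevalonate kinase, was at 73.0 and 62.8 FPKM in 10p-HFSCs, and at 46.2 and 62.0 FPKM in 48p-HFSCs, without overlap but with the nearest libraries of the groups almost equal. Mvd, the decarboxylase that yields isopentenyl diphosphate, was at 32.1 and 35.3 FPKM, and at 24.0 and 43.5 FPKM, with group means of 33.7 FPKM each and a wide spread in 48p-HFSCs. Idi1, the isomerase of that product, was the steadiest gene of the branch, at 77.1 and 74.6 FPKM in 10p-HFSCs, and at 66.8 and 68.5 FPKM in 48p-HFSCs. Fdps, farnesyl diphosphate synthase, was at 359.5 and 358 FPKM in 10p-HFSCs, and at 263 and 505 FPKM in 48p-HFSCs. The 48p-HFSC replicates of Fdps lay on either side of the 10p-HFSC libraries, as those of Mvd did. Of the Fdps exon length, 77.4% is shared with the annotated gene Gm43738 on the same strand, and reads could have been split between them.

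Among the regulators, the paralogs Srebf1 and Srebf2, and likewise Insig1 and Insig2, had opposite signs. Of the 6 genes of this role, 0 were called by limma, where 19.9% of all genes tested were called. Srebf1 and Insig2 had an unadjusted p-value under 0.05, as did 4118 of the 11018 genes tested. Srebf1 was at 26.1 and 19.0 FPKM in 10p-HFSCs, and at 14.4 and 12.0 FPKM in 48p-HFSCs, a log2 difference of -0.72 (SE 0.28, limma adjusted p = 0.12). Srebf2 was at 54.7 and 48.7 FPKM in 10p-HFSCs, and at 70.6 and 91.1 FPKM in 48p-HFSCs, a log2 difference of 0.63 (SE 0.27, limma adjusted p = 0.15). Neither gene's libraries overlapped between groups. The ratio of Srebf2 to Srebf1 was 2.096 and 2.57 in 10p-HFSCs against 4.91 and 7.57 in 48p-HFSCs.

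Insig1, itself a well-known SREBP target, was at 54.6 and 47.5 FPKM in 10p-HFSCs, and at 14.3 and 49.5 FPKM in 48p-HFSCs. Replicate 1 of 48p-HFSCs was far below all other libraries, and replicate 2 lay within the 10p-HFSC range. The log2 difference of -0.90 (SE 0.56, limma adjusted p = 0.29) was -1.76 without replicate 2 of 48p-HFSCs, where it was called (adjusted p = 0.020), and -0.04 without replicate 1. Insig2 was at 14.6 and 13.9 FPKM in 10p-HFSCs, and at 21.6 and 29.2 FPKM in 48p-HFSCs. Its libraries did not overlap, and its log2 difference of 0.78 had a 95% confidence interval of 0.12 to 1.44 (limma adjusted p = 0.095). The ratio of Insig2 to Insig1 was 0.268 and 0.292 in 10p-HFSCs against 1.51 and 0.589 in 48p-HFSCs, higher in both 48p-HFSC libraries but widely spread. Scap, the SREBP escort, was at 15.8 and 15.2 FPKM, and at 12.5 and 16.04 FPKM, and Stard4, a cytosolic sterol carrier, was at 16.6 and 10.0 FPKM, and at 11.5 and 10.2 FPKM, both with overlap.

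**Figure D3:**
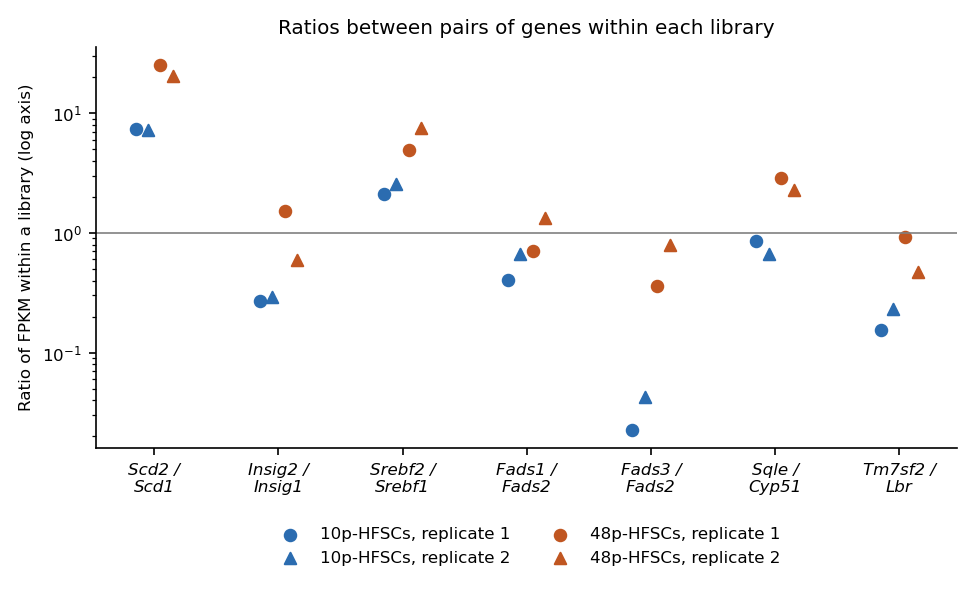
Ratio of the FPKM of the first to that of the second named gene (log axis) in each library, with circles for replicate 1 and triangles for replicate 2 of 10p-HFSCs (blue) and 48p-HFSCs (orange). Both 48p-HFSC points lie above both 10p-HFSC points for each of the 7 pairs shown, most tightly for Scd2 over Scd1 at 25.2 and 20.6 against 7.33 and 7.27.

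These ratios cancel any factor common to a library, but the pairs were chosen after their values were seen. For each pair the 48p-HFSC libraries lay above the 10p-HFSC libraries, and no exact permutation test of a pair could give a p-value under 0.333.

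A comparison of replicates, added after the values were seen, showed 48p-HFSC replicates that differed by role of the gene. FPKM was higher in replicate 2 than in replicate 1 of 48p-HFSCs for 7 of 7 mevalonate and isoprenoid genes, 9 of 10 squalene to sterol genes and 4 of 6 regulators, but for 1 of 8 fatty acid genes, Fads1. The median ratio of replicate 2 to replicate 1 was 1.54, 1.13, 1.29 and 0.849 in these 4 roles, and 1.02 over all genes tested. Replicate 2 was at least 1.5 times replicate 1 for 7 of the 31 genes, beside 23.2% of all genes, and these were Insig1 (3.46), Msmo1 (2.30), Fdft1 (1.93), Fdps (1.92), Mvd (1.82), Acat2 (1.69) and Hmgcs1 (1.54). Replicate 1 was at least 1.5 times replicate 2 for Elovl6 and Hsd17b7, beside 24.6% of all genes. In 10p-HFSCs 0 of the 31 genes had replicate 2 at least 1.5 times replicate 1, beside 7.87% of all genes, and 5 had the reverse, beside 8.20%. There the median ratio was 0.997 for the mevalonate genes and 0.720 for the fatty acid genes, so that replicates differed between these roles in the same order in both groups. Across the 31 genes, the log2 ratio of replicate 2 to replicate 1 had a Pearson correlation of 0.57 between the groups, which describes genes of the same 4 libraries and not independent replicates.

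Transcript length moved with these ratios. The log2 ratio of replicate 2 to replicate 1 had a Pearson correlation with log2 transcript length of -0.62 in 10p-HFSCs and -0.51 in 48p-HFSCs across the 31 genes, and of -0.45 and -0.36 across 10390 and 10399 genes of all roles, all measured in the same libraries. Acaca and Fasn, with transcripts of 9513 and 10050 bases, were among the genes lower in replicate 2 of both groups, while Acat2 and Mvd, with 2250 and 1756 bases, were higher in replicate 2 of both groups. Insig1 and Insig2 both had 2697 bases, but their 48p-HFSC ratios were 3.46 and 1.35. The part of transcript length in the difference between roles was not tested.

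**Figure D4:**
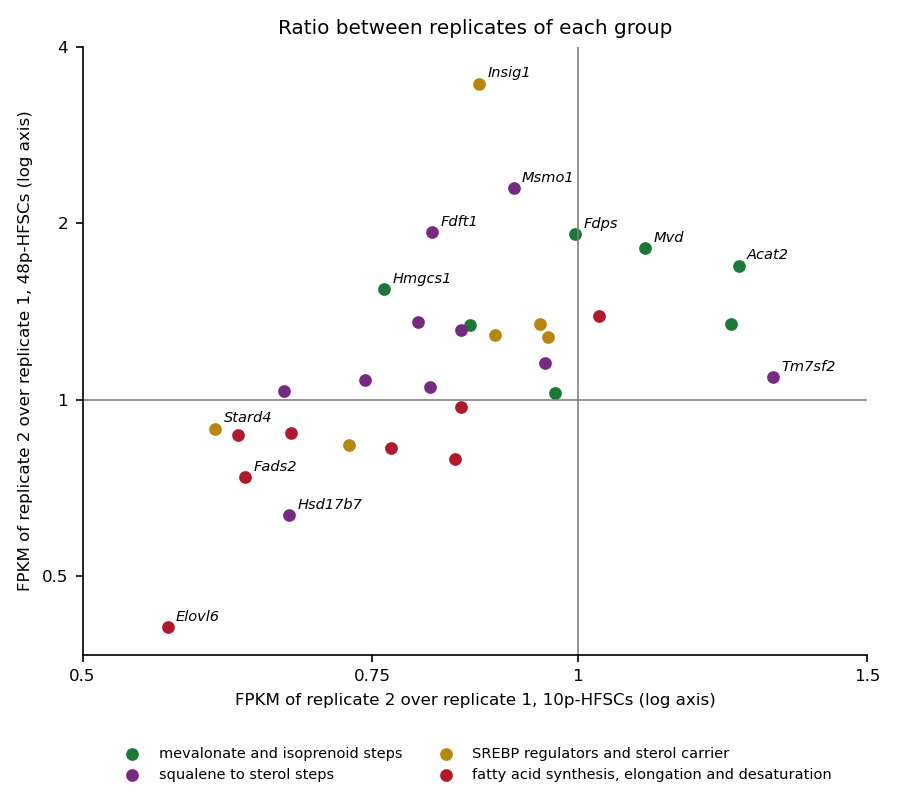
Ratio of the FPKM of replicate 2 to that of replicate 1 for each of the 31 genes, in 10p-HFSCs on the horizontal and in 48p-HFSCs on the vertical axis (log axes), colored by role, with lines at a ratio of 1. Insig1 at 3.46 and Msmo1 at 2.30 lie at the top, Elovl6 at 0.409 lies at the bottom, and 7 of 8 fatty acid genes lie below 1 on the vertical axis.

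Further genes of lipid metabolism were taken as 4 lists of 69 genes, of which 52 passed the filter on low values, 3 rose and 4 fell, or 13.46% beside 19.9% of all genes. Their median log2 difference was -0.12. In the list of sterol sensing, storage, transport and oxidation, 1 of 10 tested genes was called, or 10% beside the same 19.9%. Lipa, the lysosomal acid lipase that frees cholesterol and fatty acids from esters, rose from 6.73 and 5.95 FPKM to 33.9 and 29.7 FPKM (log2 difference 2.16, standard error 0.25, limma adjusted p = 0.0039). Its adjusted p-value was 0.11 under TPM rescaling, at a difference still above the median of all genes. In this list 7 of 17 genes were below 1 FPKM in every library, among them the sterol exporters Abca1 and Abcg1 and the sterol sensor Nr1h3. The related sensor Nr1h2 was expressed, at 37.9 and 55.3 FPKM in 10p-HFSCs, and at 48.1 and 70.7 FPKM in 48p-HFSCs.

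In the list of acetyl-CoA supply and fatty acid chain modification, 2 of 17 tested genes rose and 2 fell. That is 23.53% of the list, near the 19.9% called among all genes. The called genes were of the desaturase, elongase and dehydratase families. Fads3, a desaturase that neighbours Fads2 on chromosome 19 (10040855 to 10060113, beside 10062765 to 10101503), rose from 7.75 and 9.24 FPKM to 67.5 and 109 FPKM. Its log2 difference of 3.20 (SE 0.32, limma adjusted p = 0.0022) was the largest of the 4 lists, and its ratio to Fads2 was 0.0226 and 0.0429 in 10p-HFSCs against 0.363 and 0.799 in 48p-HFSCs. Elovl7, an elongase of saturated and polyunsaturated chains, rose from 6.85 and 7.96 FPKM to 16.2 and 20.9 FPKM (log2 difference 1.21, standard error 0.28, limma adjusted p = 0.031), and was not called under TPM rescaling (adjusted p = 0.51), at 1.24 above the median of all genes. Hacd1, a dehydratase of the elongation cycle, was at 6.22 and 7.54 FPKM in 10p-HFSCs but had a listed value of 0 for each 48p-HFSC replicate, and it was called lower (limma adjusted p = 0.0014). Scd4, a further desaturase of the Scd1 cluster, fell from 1.87 and 2.21 FPKM to 0.760 and 0.219 FPKM (limma adjusted p = 0.047, and 0.075 under TPM rescaling).

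In the list of fatty acid activation, glycerolipid synthesis and oxidation, 1 of 14 tested genes was called, or 7.14% beside 19.9% of all genes. Acsl4, an acyl-CoA synthetase that prefers polyunsaturated fatty acids, fell from 76.6 and 58.4 FPKM to 32.7 and 28.8 FPKM (log2 difference -1.10, standard error 0.27, limma adjusted p = 0.038). Pparg and Ppara, nuclear receptors for fatty acids, were among the 3 genes of this list below 1 FPKM in every library.

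**Figure D5:**
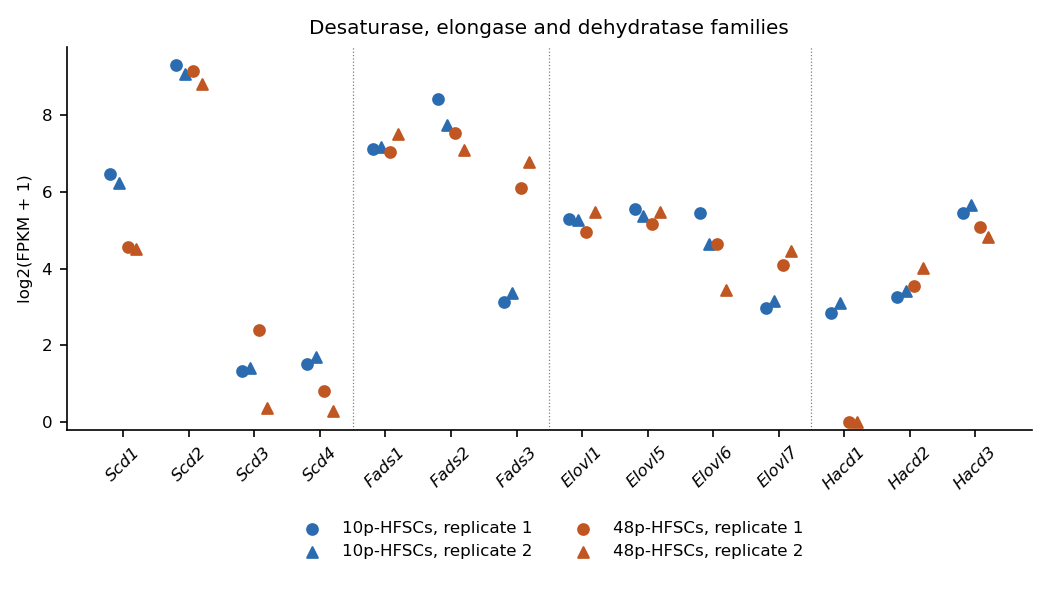
Expression on the log2(FPKM + 1) scale of desaturase (Scd and Fads), elongase (Elovl) and dehydratase (Hacd) genes in each library, with circles for replicate 1 and triangles for replicate 2 of 10p-HFSCs (blue) and 48p-HFSCs (orange). Scd1 and Hacd1 lie lower and Fads3 lies higher in both 48p-HFSC libraries, and Hacd1 is listed at 0 FPKM there.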

How the data were processed

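Polyadenylated RNA of 2 libraries of 10p-HFSCs and 2 of 48p-HFSCs was sequenced single-end from stranded libraries. The authors mapped reads to mm10 with TopHat2 2.1.1, Bowtie2 and SAMtools, and deposited FPKM values per gene symbol and library from the Cufflinks 2.2.1 package, named Cuffdiff in the submitters' processing notes. The paper and those notes give different versions of Bowtie2 and SAMtools. The annotation, the strand setting and the handling of reads with several positions are not given in the sources used here. FPKM values are not counts, so the study's count test was not run.

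Values were analysed as log2(FPKM + 1) with limma 3.58.1 in R 4.3.3 (variance trend, Benjamini-Hochberg adjustment over 11018 genes), and the fit was tested on simulated data. Libraries were grouped by the labelled passage. Depth is unknown. Gene positions and promoters came from RefSeq on GRCm38.p6, and exon overlaps, transcript lengths and GC content (96.3% of genes tested) from GENCODE M21.

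The genes and lists were chosen with earlier results of these data known. All 31 genes are named, with the up to 3 largest called increases and decreases of each further list. A result of those lists is not reported here. The rule for printing promoters (called genes with the sterol element letters) selected no gene, so those shown were chosen after their values were seen. Alternatives were other pseudocounts, filters, scalings, variance priors and call limits, the replicate number as a block, and leaving out each library. Added after the values were seen were the gene-pair and replicate ratios, a length and GC correction, and this or TPM rescaling together with the block.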

Additional observations from a re-analysis of the deposited data

How the results depend on the processing

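The fall of Scd1 kept its direction under every setting run, and its call under all but the loss of replicate 1 or replicate 2 of 10p-HFSCs. Of the lipid synthesis genes, 2 were called lower, and 1 without a filter on low FPKM, 4 under quantile normalization, 5 under TPM rescaling, 10 under TPM rescaling with the replicate block, and 0 to 3 with 1 library left out (0 without either 10p-HFSC library, 1 without replicate 1 of 48p-HFSCs). Called higher were 0, and 1 under quantile normalization (Tm7sf2), and 0 to 1 with 1 library left out. Their median log2 difference of -0.21 was -0.78 under TPM rescaling, with or without the block, which is -0.22 relative to the median of all genes there. It was -0.41 under quantile normalization, -0.097 after the length and GC correction, and -0.40 to -0.12 with 1 library left out. Of the further lipid lists, 3 genes were called higher, and 1 under TPM rescaling, 5 under median-of-ratios scaling and 0 to 6 with 1 library left out, and 4 lower, and 2 without a filter, 13 under TPM rescaling with the block and 1 to 7 with 1 library left out. Over all genes tested, 1189 were called higher, and 623 under TPM rescaling and 35 to 1936 with 1 library left out, and 1008 lower, and 637 without a filter, 2207 under TPM rescaling with the block and 140 to 1875 with 1 library left out. With a 10p-HFSC or 48p-HFSC library left out, the lone library is assumed to vary like the other group.

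The libraries share replicate numbers only by label, and the deviations of same-numbered libraries had a correlation of 0.408. The replicate block gave 1613 genes called higher and 1497 lower over all genes, 0 and 3 lipid synthesis genes (Elovl6 in addition, adjusted p = 0.010 by limma), and 5 higher of the further lists.

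Several uncalled genes changed sign. Under TPM rescaling, with or without the block, the log2 differences were -0.56 for Fdps, -0.074 for Hsd17b7, -0.17 for Ebp and -0.44 for Fads1. The median of all genes was -0.56 under TPM rescaling, and relative to it these were -0.0051, 0.48, 0.39 and 0.12. Under quantile normalization they were -0.52 for Fdps and -0.28 for Fads1, and under median-of-ratios scaling 0.0098 for Fasn. After the length and GC correction, with or without the block, they were -0.41 for Fdps, 0.065 for Sc5d, 0.040 for Scap, 0.034 for Stard4, 0.35 for Acaca, 0.32 for Fasn and 0.10 for Scd2. With 1 library left out they ranged from -0.47 to 0.36 for Mvd, -0.45 to 0.49 for Fdps, -0.98 to 0.22 for Msmo1, -0.39 to 0.027 for Sc5d, -0.28 to 0.047 for Scap, -0.57 to 0.10 for Stard4, -0.36 to 0.19 for Acaca, -0.19 to 0.17 for Fasn and -0.10 to 0.38 for Fads1. The cause of the changes other than those under TPM rescaling was not tested. Depth is not known, so precision rests on 2 libraries per group.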
